A study of Mus musculus with 4 samples.

Results

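A set of 10 genes of the NF-kB pathway was followed through single-cell libraries of lung and synovium: the subunits Nfkb1, Nfkb2, Rel and Relb, the inhibitors of the IkB family Nfkbia, Nfkbie and Nfkbiz, and the ubiquitin-editing proteins Tnfaip3, Tnip1 and Birc3. They were picked out by gene symbol, and all 10 were found among the 32285 genes listed in each library. The fifth subunit gene, Rela, was read with the other genes of the pathway.

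The libraries came from female mice on a C57BL/6 background at 4 months of age. TNF+ mice are TNF-Tg mice, which carry a human TNF transgene and develop inflammatory arthritis together with lung vascular disease, and TNF- mice are their littermate controls without the transgene. Lung and synovium of either genotype gave 4 groups, each of them 1 library made from tissue pooled over 3 to 5 mice for lung or 5 to 10 mice for synovium, so the mice of a group cannot be told apart and no difference between groups has a replicate check. The human transgene is not among the mouse genes counted. Intervals throughout are 95% intervals that cover counting error only.

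NF-kB is a family of paired transcription factors that waits in the cytoplasm of resting cells, held there by IkB proteins. A signal such as TNF at its receptor activates a kinase complex, the IkB protein is marked and destroyed, and NF-kB enters the nucleus. Among the genes it switches on there are several of its own brakes. Nfkbia encodes IkB-alpha, which captures NF-kB again and carries it out of the nucleus, Nfkbie encodes IkB-epsilon, and Nfkbiz encodes IkB-zeta, a nuclear member of the family that works as a cofactor at a subset of target genes. Tnfaip3 encodes A20, which edits ubiquitin chains on signalling proteins below the TNF receptor, Tnip1 encodes its binding partner ABIN1, and Birc3 encodes cIAP2, a ubiquitin ligase of the same receptor complexes. The RNA of these genes is therefore widely read as a trace of recent NF-kB activity in macrophages, endothelium and fibroblasts of inflamed tissue.

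Promoter sequence is given first, because the brakes described below are known for sites that NF-kB itself binds. RefSeq start sites on GRCm38.p6 were held for 7 of the 10 genes. Windows from 250 bases before to 50 after a start were searched on both strands for the NF-kB consensus site, a 10-base pattern. Matches on both strands can overlap. Of the 10 windows of the 7 genes, 8 held the consensus, and 6 of the 7 genes had at least 1 such window, Birc3 being the exception. Windows of a gene can overlap, and overlapping windows of Nfkb2 shared a match, so the windows are not independent. The consensus was in 4.51% of all 32851 windows of this length. The 150 bases before the start of 4 brakes follow, 5′ to 3′ on the strand of the gene, with the matched bases in capitals. They are chr12:55492648-55492797 (minus strand) for Nfkbia, chr17:45555550-45555699 (plus strand) for Nfkbie, chr10:19015411-19015560 (minus strand) for Tnfaip3 and chr11:54962941-54963090 (minus strand) for Tnip1.
Nfkbia: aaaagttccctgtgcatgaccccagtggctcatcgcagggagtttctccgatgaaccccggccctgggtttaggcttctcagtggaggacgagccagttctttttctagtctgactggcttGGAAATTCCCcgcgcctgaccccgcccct
Nfkbie: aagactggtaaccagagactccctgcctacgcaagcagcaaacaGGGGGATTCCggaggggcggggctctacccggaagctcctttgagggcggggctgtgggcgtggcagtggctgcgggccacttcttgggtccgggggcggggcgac
Tnfaip3: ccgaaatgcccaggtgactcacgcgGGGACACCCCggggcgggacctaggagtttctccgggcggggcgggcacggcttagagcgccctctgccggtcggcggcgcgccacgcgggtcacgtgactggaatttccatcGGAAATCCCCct
Tnip1: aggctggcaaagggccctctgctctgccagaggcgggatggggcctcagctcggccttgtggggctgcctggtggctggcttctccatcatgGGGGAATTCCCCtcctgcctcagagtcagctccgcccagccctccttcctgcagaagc

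The match in Nfkbia runs from base -29 to -20 counted from the start, and that in Nfkbie from -106 to -97. Tnfaip3 has a match from -125 to -116 and another from -12 to -3. The 4 matches in Tnip1, 2 on each strand, overlap one another between -58 and -47. A match is a run of letters, and no file of the series measures binding there. The subunit gene Rel had matches of the same pattern between -92 and -82, shown here because its RNA went the opposite way to that of Tnip1 in synovial myeloid cells. The 150 bases before the start of Rel are chr11:23770970-23771119 (minus strand).
Rel: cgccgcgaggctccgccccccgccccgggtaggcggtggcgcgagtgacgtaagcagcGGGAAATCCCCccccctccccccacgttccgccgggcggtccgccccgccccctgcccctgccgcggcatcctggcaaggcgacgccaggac

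Cells were grouped into lineages from marker genes after clustering that left out the 10 genes and their pathway. Kept cells numbered 3152 to 9174 per library, with median depths of 7137 to 12492 UMIs per cell. A UMI is 1 counted RNA molecule, and levels are given as CPM, the usual counts-per-million scale, in which the UMIs of a gene are divided by those of all genes in the same cells. Of the lineages with at least 50 cells in both libraries of a tissue, 9 were compared, 5 in lung and 4 in synovium. Platelets of the lung and Schwann cells of the synovium were not. The lineages differed in make-up and depth between the libraries. In lung, TNF- endothelium (2290 cells) had a median of 5570 UMIs and TNF+ endothelium (399 cells) 780.0, and TNF- mesenchyme (563 cells) had 6462 and TNF+ mesenchyme (212 cells) 790.0. In synovium, 17.6% of TNF+ barcodes exceeded the limit on mitochondrial UMIs, against 3.78% of TNF- barcodes. Of 36 lung and 28 synovial clusters, 11 in each tissue had over 90% of their cells from 1 library, and pairs of libraries shared 5 to 21 barcode sequences.

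**Figure D1:**
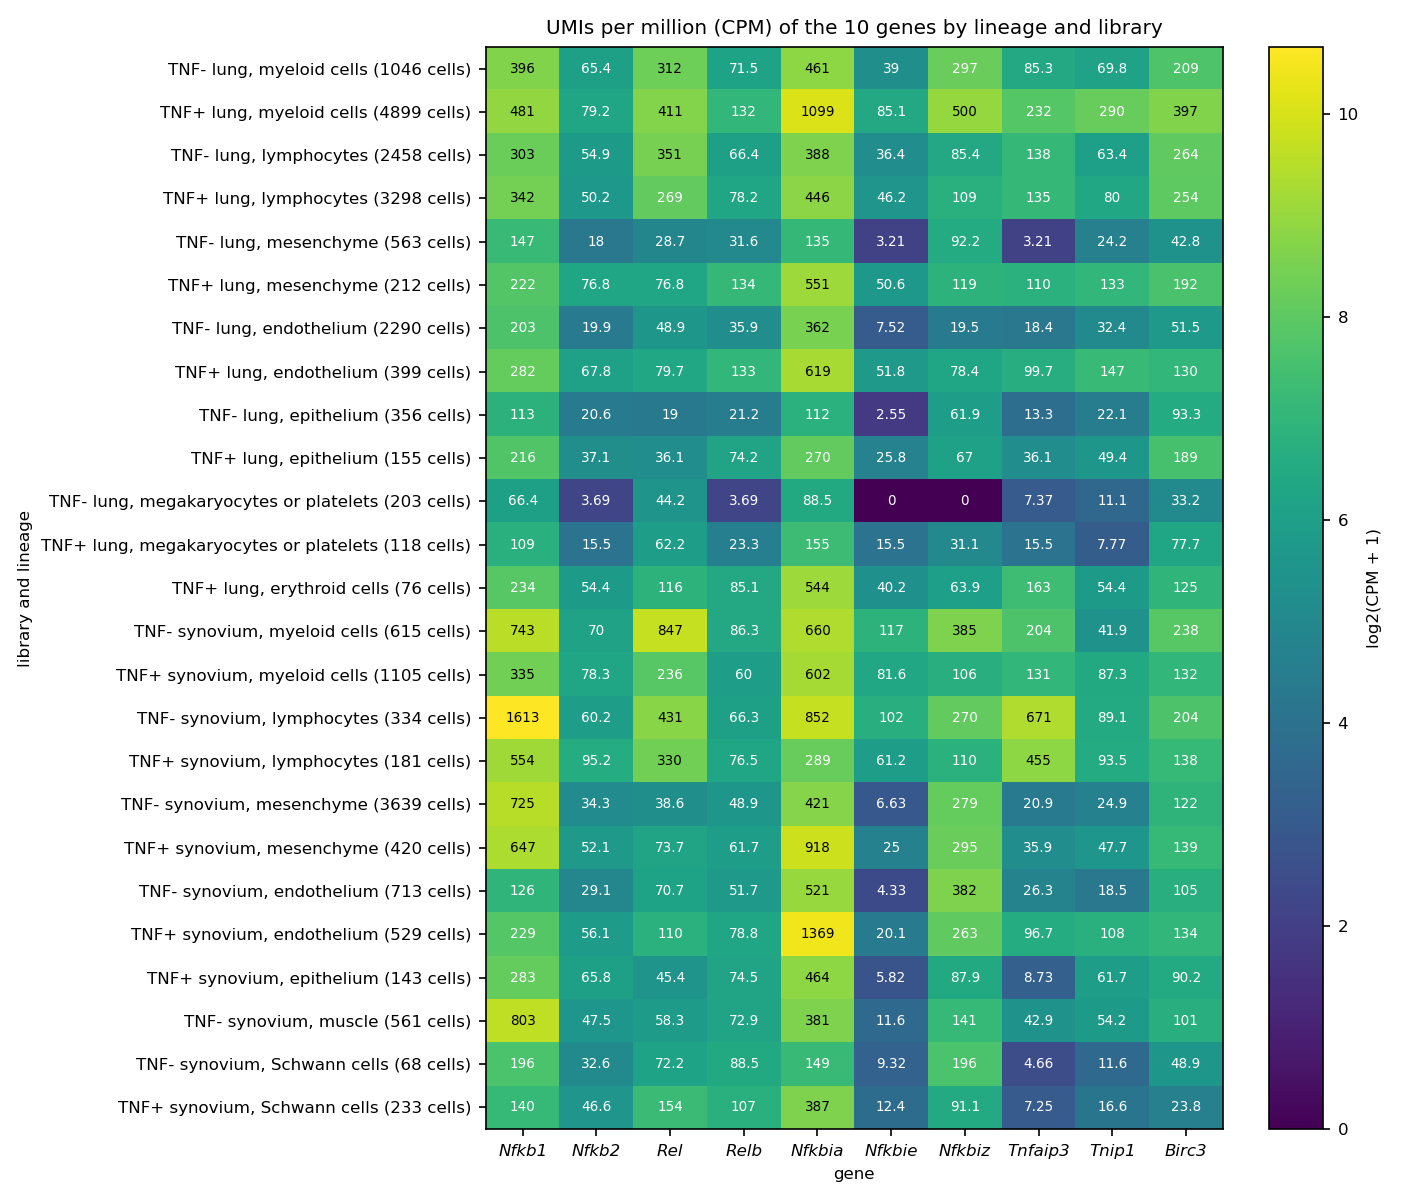
Level of each of the 10 genes (columns) in each lineage of each library (25 sums of at least 50 cells), coloured by CPM on a log scale with the value printed in each cell. Lighter colours are higher values. The largest value is Nfkb1 in TNF- synovial lymphocytes (1613 CPM), and the TNF+ lung myeloid line is higher than the TNF- line above it for all 10 genes.

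Most of the brakes were higher in TNF+ than in TNF- cells of lung myeloid cells, mesenchyme, endothelium and epithelium and of synovial endothelium. Lung lymphocytes hardly differed, and in synovial myeloid cells and lymphocytes 3 of the 10 genes each were lower. A gene was counted as higher or lower where its CPM differed at least 2-fold between the libraries of a tissue, given at least 20 UMIs in both together. All 10 genes reached that minimum in all 9 comparisons. In lung mesenchyme 8 of 10 genes were higher, where 9.35% of all genes tested were. In lung endothelium 7 of 10 were higher (10.1% of all genes), and in lung epithelium 6 of 10 (11.6% of all genes). With free RNA subtracted, 2 genes were higher and 3 lower in lung epithelium. In lung myeloid cells 4 of 10 were higher (4.46% of all genes). None of the 10 was lower in any of these 4 lineages, where 9.04%, 8.83%, 7.19% and 16.6% of all genes were. In lung lymphocytes none passed the fold in either direction, where 6.13% of all genes were higher and 10.1% lower.

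In synovium the counts split by lineage. Synovial endothelium had 4 of 10 genes higher (6.72% of all genes) and synovial mesenchyme 2 of 10 (12.9% of all genes), with none lower (10.5% and 14.3% of all genes). Synovial myeloid cells had 1 gene higher (9.16% of all genes) and 3 lower (20.1%). Synovial lymphocytes had none higher (7.83%) and 3 lower (13.1%). RNA of the macrophage genes C1qa, C1qb and C1qc, at 0.344 UMIs per cell in TNF- and 0.0718 in TNF+ synovial lymphocytes, moved with these lower values. With a free share estimated from C1q subtracted, 4 genes were lower there. The shares in synovial mesenchyme, myeloid cells and lymphocytes thus rest on 1 to 3 genes of 10. Over whole tissues, with the mix of cells left as it was, 6 of 10 were higher in lung (5.79% of all genes) and 2 in synovium (11.8%), and none was lower (25.5% and 21.9%).

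**Figure D2:**
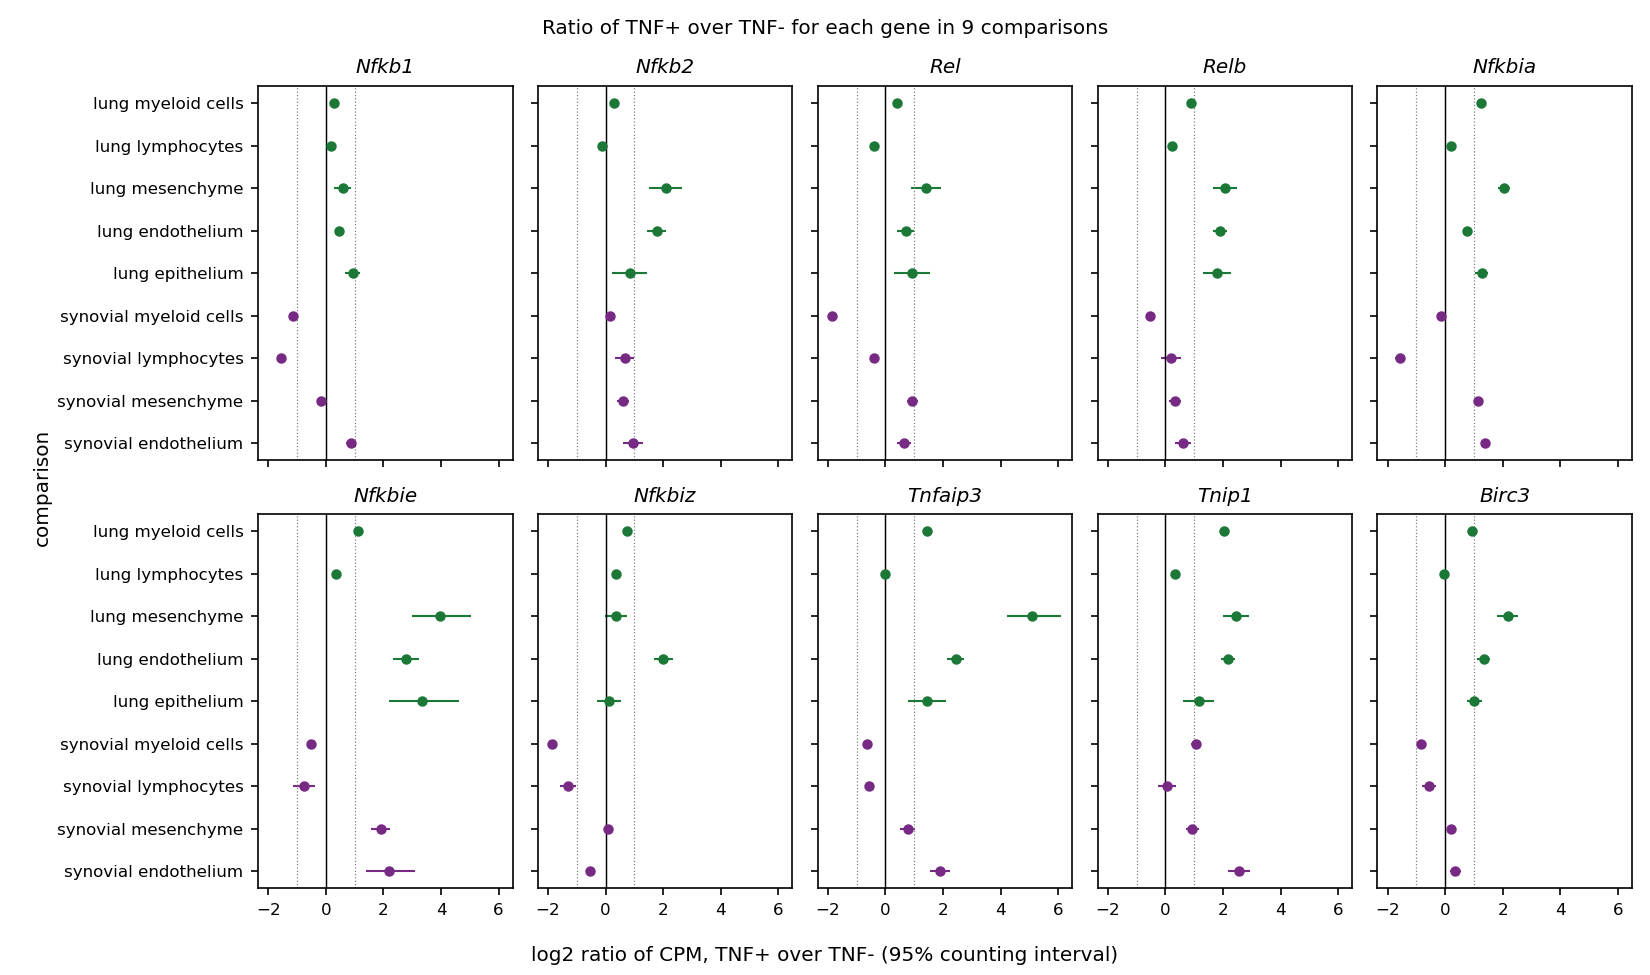
Log2 ratio of CPM, TNF+ over TNF- (x axis), for each of the 10 genes (panels) in the 9 lineages compared (y axis). Points are the ratios, bars their 95% counting intervals and the dotted lines a 2-fold difference. Tnip1 lies right of 0 in every lineage, from 0.07 in synovial lymphocytes to 2.55 in synovial endothelium. Nfkbiz runs from -1.87 in synovial myeloid cells to 2.01 in lung endothelium.

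Tnip1 lay on the TNF+ side in all 9 lineages before free RNA was subtracted. This gene (ENSMUSG00000020400, chr11:54910785-54962917, minus strand, on GRCm38) was at 69.8 CPM in TNF- against 289.6 CPM in TNF+ lung myeloid cells, a log2 ratio, TNF+ over TNF-, of 2.05 (1.94 to 2.17). In synovial endothelium it was at 18.5 CPM in TNF- against 108 CPM in TNF+ cells, a log2 ratio of 2.55 (2.16 to 2.95), the largest ratio of Tnip1 in any lineage of the study. TNF+ and TNF- levels thus stood more than 4-fold apart in both of these lineages. In lung endothelium Tnip1 was at 32.4 CPM in TNF- against 147 CPM in TNF+ cells, a log2 ratio of 2.19 (1.95 to 2.42). It was at 24.2 CPM in TNF- against 133 CPM in TNF+ cells of lung mesenchyme, with a ratio of 2.45 (2.0004 to 2.90). Tnip1 was also the gene of the 10 that was higher in synovial myeloid cells, at 41.9 CPM in TNF- against 87.3 CPM in TNF+ cells, a log2 ratio of 1.06 (0.90 to 1.22). That call was lost within macrophages or monocytes (0.55, 0.32 to 0.78) and dendritic cells (0.41, -0.12 to 0.91), and with each cell weighted equally. Dendritic cells were 366 of 615 TNF- but 58 of 1105 TNF+ synovial myeloid cells. Lung epithelium (1.16, 0.61 to 1.70) passed the fold as well, but was at -0.33 with free RNA subtracted. Synovial mesenchyme (0.94, 0.71 to 1.16) came just short of the fold. Within it the ratio was 0.36 (-0.02 to 0.72) in fibroblasts and 1.84 (1.29 to 2.42) in mural cells. In lymphocytes the levels were close, with ratios of 0.33 (0.24 to 0.43) in lung and 0.07 (-0.25 to 0.38) in synovium. Across the 16 cell types that had enough cells in both libraries, the interval of Tnip1 lay above 0 in 13 and below 0 in none.

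The binding partner of Tnip1, Tnfaip3 (ENSMUSG00000019850, chr10:19000910-19015657, minus strand), reached its highest levels in synovial lymphocytes of both groups. There it was at 671 (646 to 697) CPM in TNF- against 455 (417 to 495) CPM in TNF+ cells, the first and second of 25 lineage sums, with intervals apart. In myeloid cells of the lung the higher value was on the TNF+ side. They had 85.3 CPM in TNF- against 232 CPM in TNF+ cells, a log2 ratio of 1.44 (1.34 to 1.55), and synovial endothelium 26.3 CPM in TNF- against 96.7 CPM in TNF+ cells, a log2 ratio of 1.88 (1.55 to 2.23). In TNF- lung mesenchyme Tnfaip3 was nearly absent, with 13 UMIs in 563 cells. That is 3.21 (1.71 to 5.50) CPM, against 109.9 (84.4 to 141) CPM in TNF+ cells, and the log2 ratio of 5.10 (4.22 to 6.08) was the largest of all 90 ratios. In lung endothelium it was at 18.4 CPM in TNF- against 99.7 CPM in TNF+ cells, a log2 ratio of 2.44 (2.14 to 2.73), and in epithelium the ratio was 1.44 (0.77 to 2.10). With free RNA subtracted the epithelial ratio turned to -1.71. Synovial myeloid cells (-0.64, -0.73 to -0.55) and lung lymphocytes (-0.03, -0.10 to 0.03) did not follow. Within lung lymphocytes, B or plasma cells (1258 TNF- and 1587 TNF+ cells) had less Tnfaip3 in the TNF+ library. They were at 70.8 CPM in TNF- against 34.0 CPM in TNF+ cells, a log2 ratio of -1.06 (-1.22 to -0.90). This was the lung cell type with a member lower at 2-fold (11.8% of all genes). The mix of cells differed, with 23 TNF- and 150 TNF+ cells in a cluster led by Jchain (median 37500 UMIs). Its part in the ratio was not tested.

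Birc3 (ENSMUSG00000032000, chr9:7848699-7873186, minus strand) was highest in TNF+ lung myeloid cells, at 397 (391 to 403) CPM against 209 (201 to 219) CPM in TNF- cells. The log2 ratio of 0.92 (0.86 to 0.99) fell just short of 2-fold. Lung mesenchyme (42.8 CPM in TNF- against 192 CPM in TNF+ cells), endothelium (51.5 CPM in TNF- against 130.2 CPM in TNF+ cells) and epithelium (93.3 CPM in TNF- against 189 CPM in TNF+ cells) passed it. The log2 ratios of these 3 were 2.17 (1.81 to 2.52), 1.34 (1.10 to 1.57) and 1.01 (0.75 to 1.28). With free RNA subtracted the calls in endothelium (0.21) and epithelium (0.78) were lost. In synovium the ratio of Birc3 was 0.34 (0.15 to 0.54) in endothelium and 0.19 (0.06 to 0.31) in mesenchyme, and among mural cells of the mesenchyme it passed the fold, at 1.19 (0.83 to 1.56). It was on the TNF- side in synovial myeloid cells, at 238 CPM in TNF- against 132 CPM in TNF+ cells.

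Nfkbia (ENSMUSG00000021025, chr12:55489410-55492647, minus strand) had its highest level in TNF+ synovial endothelium, at 1369 (1333 to 1405) CPM, followed by TNF+ lung myeloid cells at 1099 (1089 to 1108) CPM and TNF+ synovial mesenchyme at 918 (888 to 949) CPM. The intervals of these 3 sums do not overlap, and all 3 are TNF+. The matched TNF- sums were at 521 (497 to 545), 461 (448 to 474) and 421 (415 to 426) CPM. The log2 ratios were 1.39 (1.32 to 1.47), 1.25 (1.21 to 1.30) and 1.13 (1.07 to 1.18), so Nfkbia was at least 2-fold higher in all 3 lineages. The mix of cells in synovial mesenchyme differed, with 193 of 420 TNF+ cells but 295 of 3639 TNF- cells being mural cells. Among fibroblasts alone the ratio did not reach 2-fold, at 0.85 (0.77 to 0.92). Lung mesenchyme (135 CPM in TNF- against 551 CPM in TNF+ cells) and epithelium (112 CPM in TNF- against 269.9 CPM in TNF+ cells) also passed the fold, the epithelial call being lost with free RNA subtracted (0.49). Lung endothelium, at 362 CPM in TNF- against 619 CPM in TNF+ cells, a log2 ratio of 0.77 (0.67 to 0.87), did not.

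Lymphocytes of the joint were the exception for Nfkbia. They were at 852 (824 to 881) CPM in TNF- against 289 (259 to 321) CPM in TNF+ cells, a log2 ratio of -1.56 (-1.73 to -1.40). The make-up of the sums differed: the TNF- sum held 141 NK or innate lymphoid cells, which had 1458 CPM of Nfkbia, and the TNF+ sum held 19. Among synovial T cells alone (131 and 127 cells), Nfkbia was still lower, at 419.7 CPM in TNF- against 199 CPM in TNF+ cells, a log2 ratio of -1.07 (-1.33 to -0.83). In synovial myeloid cells Nfkbia barely differed, at 660.2 CPM in TNF- against 602 CPM in TNF+ cells, a log2 ratio of -0.13 (-0.18 to -0.09). Myeloid cells were also more frequent in the TNF+ lung library (4899 of 9174 cells against 1046 of 6998). Of the Nfkbia UMIs, 75.4% came from myeloid cells in that library and 23.9% in the TNF- library.

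Nfkbie (ENSMUSG00000023947, chr17:45555703-45563169, plus strand) was at low levels in the mesenchyme, endothelium and epithelium of the TNF- libraries. TNF- lung mesenchyme had 13 UMIs in 563 cells. Levels in the stromal lineages were 3.21 CPM in TNF- against 50.6 CPM in TNF+ lung mesenchyme, 7.52 CPM in TNF- against 51.8 CPM in TNF+ lung endothelium and 4.33 CPM in TNF- against 20.1 CPM in TNF+ synovial endothelium. All the TNF+ values are above the TNF- values here, and log2 ratios were 3.98 (2.99 to 5.04), 2.79 (2.34 to 3.22) and 2.21 (1.41 to 3.11). Lung epithelium (3.34, 2.19 to 4.62), lung myeloid cells (1.13, 0.98 to 1.28) and synovial mesenchyme (1.92, 1.57 to 2.25) passed the fold too, which makes 6 of 9 lineages. The highest levels lay in TNF- synovial myeloid cells, at 117 (110.1 to 124) CPM, and in TNF- synovial lymphocytes, at 102 (92.8 to 113) CPM. Their intervals overlap.

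Nfkbiz (ENSMUSG00000035356, chr16:55811375-55838899, minus strand) lay on different sides of 0 in myeloid cells of the 2 tissues, a difference that was not tested. In lung myeloid cells it was at 297 CPM in TNF- against 500.4 CPM in TNF+ cells, a log2 ratio of 0.75 (0.70 to 0.81), and lung endothelium was at 19.5 CPM in TNF- against 78.4 CPM in TNF+ cells, a log2 ratio of 2.01 (1.69 to 2.33). The endothelial ratio turned to -2.67 with free RNA subtracted. In the synovium, myeloid cells were at 385 CPM in TNF- against 106 CPM in TNF+ cells, a log2 ratio of -1.87 (-1.95 to -1.78). In the myeloid sums the group with more Nfkbiz was thus TNF+ in lung and TNF- in synovium. Of the TNF+ synovial myeloid cells, 778 lay in a cluster that held 8 TNF- cells. In the synovial cluster led by Cd300e (139 TNF- and 216 TNF+ cells), Nfkbiz did not pass the fold. Synovial lymphocytes were at 269.8 CPM in TNF- against 109.6 CPM in TNF+ cells, a log2 ratio of -1.30 (-1.57 to -1.04). Synovial endothelium was at 382 CPM in TNF- against 263 CPM in TNF+ cells, a log2 ratio of -0.54 (-0.65 to -0.42), the one member there below 0. In synovial mesenchyme, which held 66.6% of the Nfkbiz UMIs of the TNF- synovial library, the ratio was 0.08 (-0.01 to 0.17), and in its mural cells 0.55 (0.39 to 0.71). Over cell types, Nfkbiz was 2-fold higher in 2, both of lung, and 2-fold lower in 3, all of synovium.

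Among the subunits, Relb passed the fold in lung and not in synovium. Relb (ENSMUSG00000002983, chr7:19606217-19629438, minus strand) is the subunit of the non-canonical arm of the pathway, where it pairs with the product of Nfkb2. In lung mesenchyme it was at 31.6 CPM in TNF- against 134 CPM in TNF+ cells, a log2 ratio of 2.09 (1.66 to 2.50). Endothelium was at 35.9 CPM in TNF- against 133 CPM in TNF+ cells, a log2 ratio of 1.89 (1.64 to 2.13), and epithelium at 21.2 CPM in TNF- against 74.2 CPM in TNF+ cells, a log2 ratio of 1.81 (1.32 to 2.29). The TNF+ levels of mesenchyme, endothelium and myeloid cells were the highest 3 of all sums and had overlapping intervals. Lung myeloid cells, at 71.5 CPM in TNF- against 132 CPM in TNF+ cells, a log2 ratio of 0.88 (0.77 to 0.999), stayed just under the fold. In synovium no lineage passed the fold, with ratios from -0.53 in myeloid cells to 0.61 in endothelium. Relb was at least 2-fold higher in 7 cell types, every one of lung.

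Nfkb2 (ENSMUSG00000025225, chr19:46304320-46312385, plus strand) encodes the precursor p100. Its gene body overlaps Psd and AC114539.1, which were also counted, and counts in the overlaps are uncertain. Each of the 24 neighbouring pairs in the order of its levels had overlapping intervals. It passed the fold in lung mesenchyme, at 18.05 CPM in TNF- against 76.8 CPM in TNF+ cells, a log2 ratio of 2.09 (1.51 to 2.65), and also in endothelium of the lung, at 19.9 CPM in TNF- against 67.8 CPM in TNF+ cells, a log2 ratio of 1.77 (1.43 to 2.10). In the remaining lineages its ratio lay between -0.13 and 0.94, including lung myeloid cells at 0.28.

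Nfkb1 (ENSMUSG00000028163, chr3:135584655-135691547, minus strand), the source of p50, was not higher at 2-fold in any lineage or cell type. Before free RNA was subtracted, ratios in the lung ranged from 0.18 in lymphocytes to 0.93 in epithelium. In the joint it was lower in TNF+ immune cells. Synovial lymphocytes were at 1613 CPM in TNF- against 554 CPM in TNF+ cells, a log2 ratio of -1.54 (-1.66 to -1.43), where the 141 NK or innate lymphoid cells of the TNF- library had 2887 CPM. Synovial myeloid cells were at 743 CPM in TNF- against 335 CPM in TNF+ cells, a log2 ratio of -1.15 (-1.20 to -1.10). Within cell types the call did not hold for macrophages or monocytes (-0.70, -0.78 to -0.62) or T cells (-0.91, -1.08 to -0.74), and held for dendritic cells (-1.10, -1.25 to -0.94). Synovial mesenchyme, which held 66.4% of the Nfkb1 UMIs of the TNF- synovial library, was at 725 CPM in TNF- against 647 CPM in TNF+ cells, a log2 ratio of -0.16 (-0.22 to -0.11), and synovial endothelium at 126 CPM in TNF- against 229 CPM in TNF+ cells, a log2 ratio of 0.87 (0.70 to 1.04).

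Rel (ENSMUSG00000020275, chr11:23736847-23770970, minus strand) encodes c-Rel, the subunit best known from lymphocytes and myeloid cells. Its highest level was in TNF- synovial myeloid cells, 847 (829 to 865) CPM, followed by TNF- synovial lymphocytes, 431 (411 to 452) CPM. TNF+ synovial myeloid cells were at 236 (228 to 244) CPM, a log2 ratio of -1.84 (-1.90 to -1.79). In lung myeloid cells the ratio was on the opposite side, at 312 CPM in TNF- against 411 CPM in TNF+ cells, a log2 ratio of 0.40 (0.34 to 0.45). Lung mesenchyme was at 28.7 CPM in TNF- against 76.8 CPM in TNF+ cells, a log2 ratio of 1.42 (0.89 to 1.93), from 116 UMIs in the TNF- library, and was the lineage where Rel was higher at 2-fold. That call was lost, and the direction turned, when a free share estimated from C1q was taken away. Lung lymphocytes (-0.38, -0.43 to -0.34) and synovial lymphocytes (-0.39, -0.55 to -0.23) both lay slightly below 0.

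**Figure D3:**
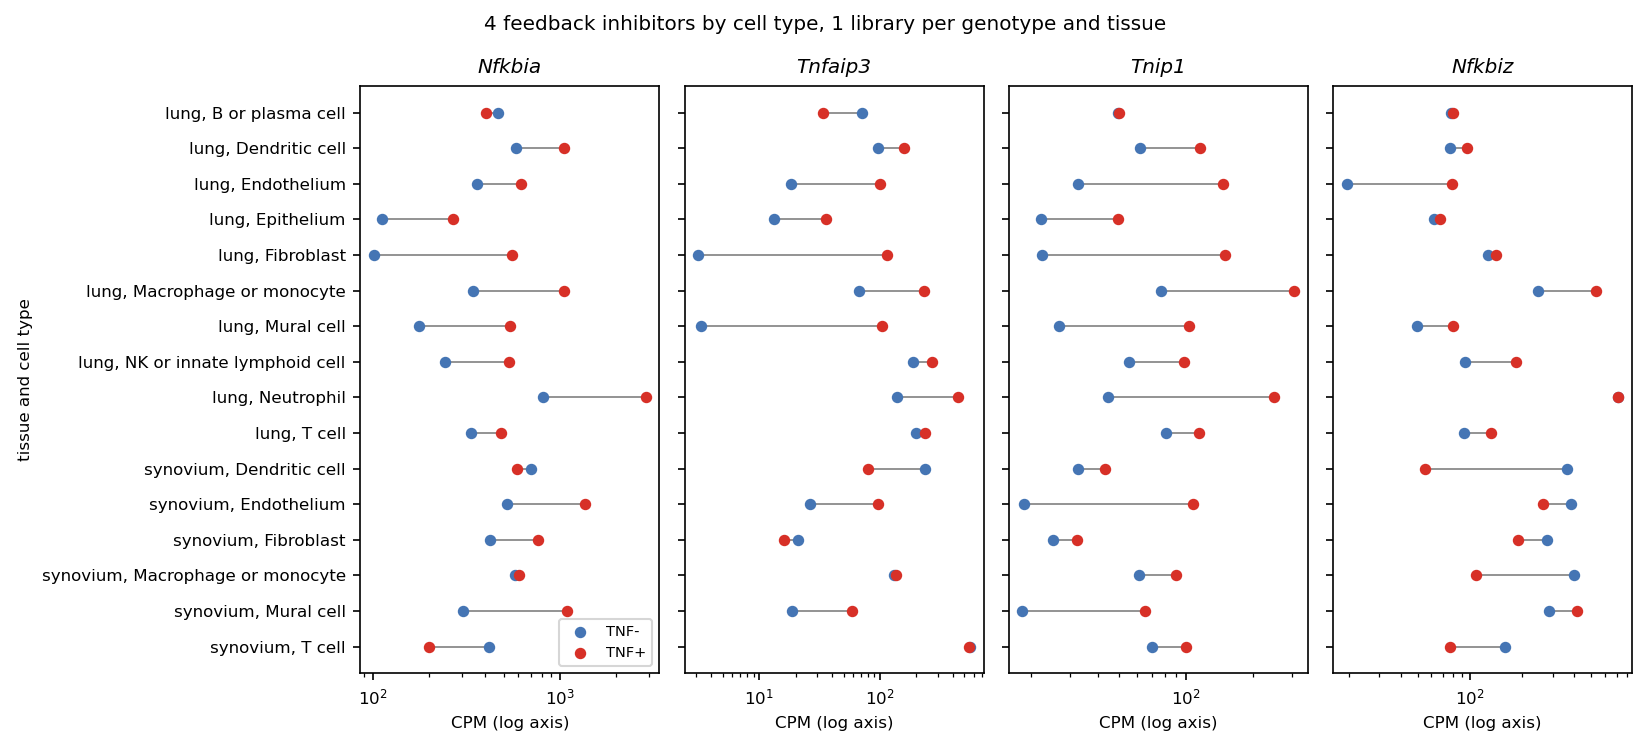
CPM (x axis, log scale) of Nfkbia, Tnfaip3, Tnip1 and Nfkbiz (panels) in each cell type (y axis) with at least 50 cells in both libraries of its tissue. Blue points are TNF-, red points TNF+, joined by a grey line, and no intervals are drawn. Nfkbia in lung neutrophils reaches 2880 CPM in the TNF+ library against 812 in the TNF- library, and Nfkbiz in synovial macrophages or monocytes is at 108 CPM in the TNF+ library against 397.

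Resolved by cell type, the myeloid pattern of the lung was shared by neutrophils and macrophages or monocytes. In lung neutrophils (302 TNF- and 179 TNF+ cells) 7 of 10 genes were higher (5.93% of all genes). Nfkbia was at 812 CPM in TNF- against 2879.8 CPM in TNF+ cells, a log2 ratio of 1.83 (1.73 to 1.92), and Birc3 at 243 CPM in TNF- against 948 CPM in TNF+ cells, a log2 ratio of 1.96 (1.79 to 2.14). Tnip1 had a ratio of 2.48 (2.09 to 2.89), while Nfkbiz, which neutrophils express strongly, was equal, at 717 CPM in TNF- against 716 CPM in TNF+ cells, a log2 ratio of -0.0033 (-0.13 to 0.13). In lung macrophages or monocytes (633 and 4417 cells) 6 of 10 were higher (5.01% of all genes). There Nfkbia was at 342 CPM in TNF- against 1051 CPM in TNF+ cells, a log2 ratio of 1.62 (1.56 to 1.68), and Tnip1 at 77.3 CPM in TNF- against 308 CPM in TNF+ cells, a log2 ratio of 1.996 (1.87 to 2.12). Dendritic cells of the lung (91 and 295 cells) had none higher (5.02% of all genes) and none lower (6.43%), so the lung myeloid result was not seen in them at 2-fold. T cells of the lung had none higher (6.93% of all genes) or lower (7.27%), and NK or innate lymphoid cells had 2 higher (5.61% of all genes) and none lower (5.21%). Fibroblasts of the lung (363 and 112 cells) had 8 higher (11.3% of all genes) and none lower (10.3%).

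The same difference was seen inside single clusters. In 4 lung clusters of macrophages or monocytes with at least 50 cells in each library, Relb, Nfkbia, Tnfaip3 and Tnip1 were all higher at 2-fold. The cluster led by Ccdc192, Cd300e and Hsd17b2 (319 TNF- and 2740 TNF+ cells) had 4 of 10 genes higher (5.81% of all genes) and none lower (8.50%), with log2 ratios of 1.20 for Relb, 1.28 for Nfkbia, 1.57 for Tnfaip3 and 1.60 for Tnip1. The cluster led by F13a1, Msr1 and AI839979 (122 and 476 cells) also had 4 higher (7.75% of all genes), with 1.67 for Nfkbia and 1.95 for Tnip1. In the cluster led by St18, Cxcl13 and C1qc (63 and 238 cells) 6 were higher (8.55% of all genes), with 1.10 for Nfkbia and 1.73 for Tnip1. The cluster led by Kcnip4, Htr2c and Cidec (104 and 70 cells) had 6 higher as well (4.56% of all genes), with 1.45 for Nfkbia and 1.93 for Tnip1. Nfkb1, in contrast, had ratios of -0.14, 0.06, 0.21 and 0.65 in these clusters. Relb, Nfkbia, Tnfaip3 and Tnip1 thus passed the fold within clusters of like cells, and Nfkb1 did not.

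Shares of cells show the same on a common depth. Each cell with at least 1000 UMIs was thinned to that depth, and shallower cells were left out. Nfkbia was then found in 38.2% (35.2 to 41.3) of lung myeloid cells in the TNF- library, and in 62.1% (60.6 to 63.5) in the TNF+ library. The lung myeloid cluster led by Spp1 (25 TNF- and 893 TNF+ cells) had a median of 778 UMIs, so many TNF+ cells were left out. Without thinning, and over all cells, the shares were 82.2% and 87.6%. Tnip1 was found in 6.37% (4.95 to 8.04) of thinned TNF- and 23.6% (22.4 to 24.9) of thinned TNF+ lung myeloid cells, and in 36.5% and 71.5% of unthinned ones. These intervals are exact (Clopper-Pearson) and do not overlap between groups. Platelets, small cells without a nucleus, served as the background, and 34 of 118 TNF+ platelets were deep enough to be thinned. In these Nfkbia was found in 5.88% (0.720 to 19.7), and Tnip1 in none, which allows a share of up to 8.82%. Platelets had a median of 720.0 UMIs in that library, and TNF+ lung myeloid cells 8966.

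In synovial endothelium 3 clusters had at least 50 cells in both libraries. The cluster led by Timp4 and Aqp1 (534 TNF- and 271 TNF+ cells) had 5 of 10 genes higher (7.49% of all genes), with log2 ratios of 1.26 for Nfkbia, 1.89 for Tnfaip3 and 2.31 for Tnip1. The cluster led by Cytl1 and Gkn3 (88 and 143 cells) had 6 higher (10.5% of all genes), with 1.61, 2.22 and 3.42 for the same genes. In the cluster led by Plvap (73 and 87 cells) 4 of the 10 genes reached 20 UMIs, and 1 was higher (6.08% of all genes) and none lower (17.4%). That gene was Nfkbia, at 1.07, while Tnfaip3 and Tnip1 had too few UMIs there. Nfkbia thus passed the fold in all 3 clusters. On thinned cells, Nfkbia was found in 34.3% (30.7 to 38.0) of synovial endothelial cells in the TNF- library, and in 61.1% (56.6 to 65.4) in the TNF+ library. The mural cells that wrap the vessels (295 and 193 cells) had 7 of 10 genes higher (9.43% of all genes) and none lower (14.8%), with Nfkbia at 304 CPM in TNF- against 1092 CPM in TNF+ cells, a log2 ratio of 1.84 (1.71 to 1.98). The mural clusters differed between libraries. The cluster led by Abcc9 held 235 TNF- and 41 TNF+ cells, and the one led by Rgs5 held 1 and 65 and had the endothelial genes Cldn5, Esm1 and Fabp4 among its leading genes. In the cluster led by Myh11 (59 and 87 cells) 3 of 10 genes were higher (7% of all genes) and none lower (7.22%), with Nfkbia at 0.74 and Tnip1 at 2.60.

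Synovial fibroblasts, the most numerous cells of the TNF- joint, had 1 gene higher (11.2% of all genes) and none lower (13.8% of all genes). The single gene was Nfkbie, at 6.23 CPM in TNF- against 13.7 CPM in TNF+ cells, a log2 ratio of 1.13 (0.52 to 1.69). Nfkbia came next with a ratio of 0.85 (0.77 to 0.92). Among the fibroblast clusters, those led by Grm8 (1351 TNF- and 56 TNF+ cells), Gdf10 (879 and 74) and Chad (362 and 77) had Nfkbia ratios of 1.16, 0.92 and 0.59, and in the Chad cluster Tnfaip3 was on the TNF- side at -1.32. A cluster led by Mmp13, Cxcl5 and Saa3 (3 TNF- and 231 TNF+ cells) stayed unnamed and outside mesenchyme. It had 710.4 CPM of Nfkbia, 66.0 CPM of Tnfaip3, 84.6 CPM of Tnip1 and 231.3 CPM of Nfkbiz. Adding it to mesenchyme changed the number of genes higher from 2 to 3.

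Synovial immune cells were also compared by cell type. In synovial dendritic cells (366 and 58 cells) 3 of 10 genes were lower (14.1% of all genes) and none higher (9.19%), and Nfkbiz was at 364 CPM in TNF- against 55.4 CPM in TNF+ cells, a log2 ratio of -2.72 (-3.15 to -2.31). Macrophages or monocytes (222 and 1024 cells) had 2 lower (19.8% of all genes) and none higher (8.57%). Rel was at 607 CPM in TNF- against 206 CPM in TNF+ cells, a log2 ratio of -1.56 (-1.64 to -1.47), and Nfkbiz at 397 CPM in TNF- against 108 CPM in TNF+ cells, a log2 ratio of -1.88 (-1.99 to -1.77). Nfkbia (0.07, -0.01 to 0.14) and Tnfaip3 (0.05, -0.11 to 0.21) were level there. Most TNF+ macrophages (778 of 1024) lay in a cluster led by Cxcl3 and Mmp12 that held 8 TNF- cells. In the cluster led by Cd300e, Treml4 and Apoc2, with 139 TNF- and 216 TNF+ cells, 2 genes were lower (10.8% of all genes), Rel at -1.07 and Tnfaip3 at -1.15. T cells of the joint had none higher (5.82% of all genes) and 2 lower (8.86%), Nfkbia and Nfkbiz, with Tnfaip3 level at 556 CPM in TNF- against 544 CPM in TNF+ cells, a log2 ratio of -0.03 (-0.20 to 0.13).

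Several of the 10 are early-response genes, which tissue digestion can also induce, so 17 immediate-early and heat-shock genes were read beside them. In synovial myeloid cells 11 of the 17 were 2-fold lower (20.1% of all genes) and none higher in TNF+ cells, with a median log2 ratio of -1.46 against -0.15 for all genes. In synovial lymphocytes 10 of 17 were lower (13.1% of all genes) and none higher, with a median of -1.28 against 0.15. The list thus moved with the lower values of Nfkb1, Rel and Nfkbiz in myeloid cells and of Nfkb1, Nfkbia and Nfkbiz in lymphocytes, and its part in them was not tested. By the summed level, synovial myeloid cells had 11163 CPM of the list in TNF- against 5886 CPM in TNF+ cells. Egr1, a transcription factor induced within minutes, was at 257 CPM in TNF- against 22.2 CPM in TNF+ synovial myeloid cells. In lung myeloid cells, synovial endothelium and lung mesenchyme, all with higher brakes, the median of the list lay on the TNF- side. Lung myeloid cells had 5 of 17 lower (16.6% of all genes) and none higher (4.46%), with a median of -0.70 against -0.10 for all genes. Synovial endothelium had 3 lower (10.5% of all genes) and 1 higher (6.72%), with a median of -0.44 against -0.13. Lung mesenchyme had 1 higher (9.35% of all genes) and none lower (9.04%), with a median of -0.27 against -0.02. Fos was at 979 CPM in TNF- against 342 CPM in TNF+ lung myeloid cells, the opposite side to Nfkbia and Tnip1. In lung endothelium 3 of 17 were higher (10.1% of all genes) and none lower (8.83%), with a median of 0.30 against 0.04. Lung epithelium had 1 lower (7.19% of all genes) and none higher (11.6%), with a median of 0.20 against 0.03. The counts in lung mesenchyme and epithelium and in endothelium of both tissues rest on 1 to 3 genes of 17.

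TNF+ lung mesenchyme and endothelium, where most ratios were large, were shallow, and RNA of other cells was measurable in them and in epithelium. Complement C1q genes (C1qa, C1qb and C1qc), which macrophages make, averaged 1.09 UMIs per cell in TNF+ lung mesenchyme, 0.930 in endothelium and 1.02 in epithelium. In the TNF- library the same averages were 0.0337, 0.0271 and 0.0281. The averages of the TNF+ library were the higher ones in all 3 lineages, and macrophages of that library also had high levels of Nfkbia and Tnip1. Platelets of the TNF+ library carried 0.932 C1q UMIs per cell but 0.169 of Nfkbia, 0.0169 of Tnfaip3 and 0.00847 of Tnip1. TNF+ endothelium, with a like C1q load, carried 2.33 of Nfkbia, 0.376 of Tnfaip3 and 0.556 of Tnip1 per cell. Depth differed, as 90 deep endothelial cells (median 10065 UMIs) held 549 of the 931 Nfkbia UMIs of this endothelium. Another 263 endothelial cells were shallow (median 652 UMIs), near the depth of platelets (720). These shallow cells carried 0.897 of C1q, 0.494 of Nfkbia, 0.118 of Tnfaip3 and 0.110 of Tnip1 per cell. The part of depth was not tested. Lung myeloid cells also held RNA of other cells. A free share estimated there from Sftpc, an epithelial marker, was 38.1% of UMIs in TNF+ and 4.24% in TNF- cells. Its part in the myeloid ratios by cell type and cluster was not tested.

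**Figure D4:**
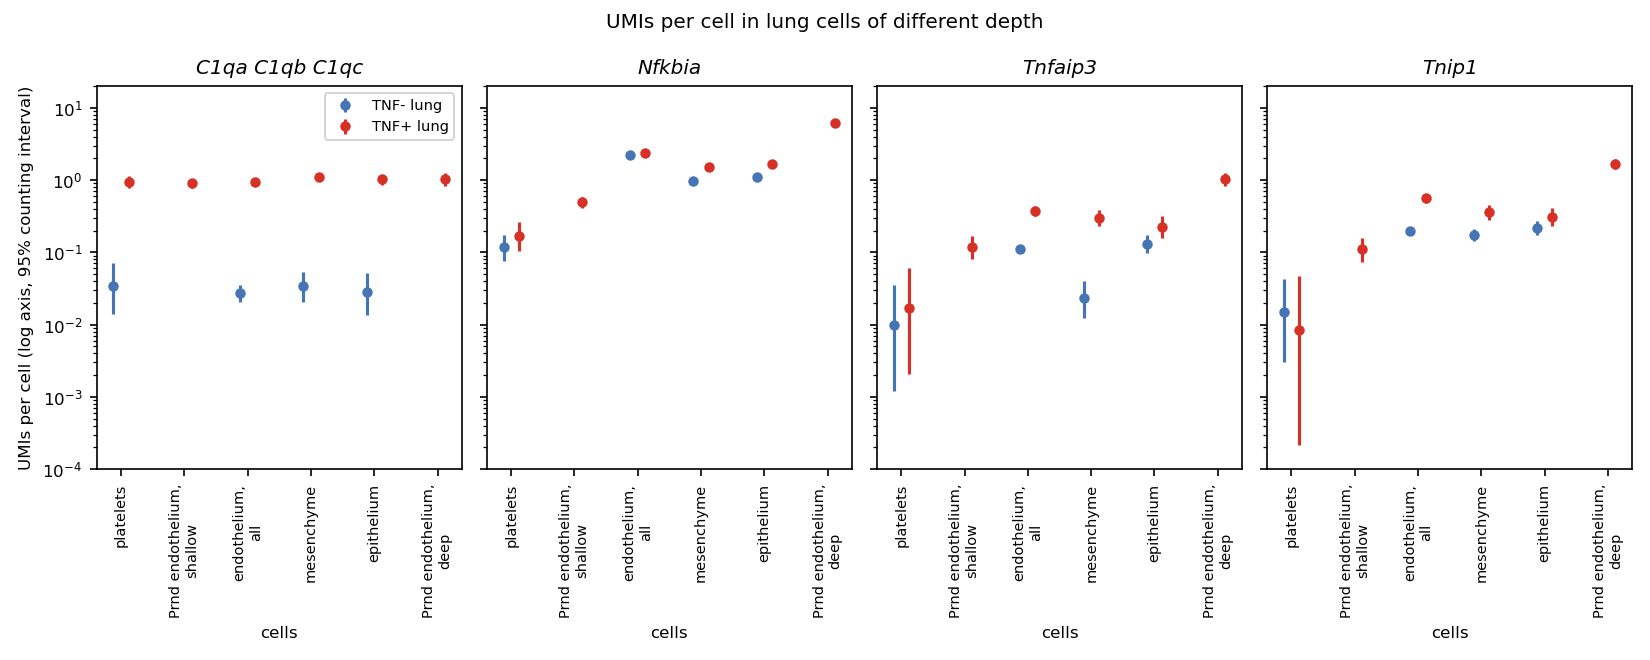
UMIs per cell (y axis, log scale) of C1q (C1qa, C1qb and C1qc summed), Nfkbia, Tnfaip3 and Tnip1 in groups of lung cells, TNF- and TNF+, with 95% counting intervals. C1q is alike in TNF+ platelets (0.932) and in the deep endothelial cluster led by Prnd (1.02), while Nfkbia is at 0.169 UMIs per cell in the first and 6.10 in the second. Median depths of these platelets and deep cells were 720 and 10065 UMIs. In the shallow Prnd cluster, with a median of 652 UMIs, Nfkbia is at 0.494.

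Within TNF+ lung endothelium, 90 cells formed a deep cluster led by Prnd, a gene known from endothelium, with a median of 10065 UMIs and 4 TNF- cells. Here Nfkbia was at 622 CPM (571 to 676), Tnfaip3 at 105 CPM (85.0 to 129), Tnip1 at 171 CPM (145 to 201) and Relb at 127 CPM (104 to 153). The 5 TNF- endothelial clusters with at least 50 cells had 4.00 to 24.1 CPM of Tnfaip3 and 27.4 to 40.0 CPM of Tnip1. The deep cells were thus above all 5 for both genes. A shallow cluster, also led by Prnd, with 263 TNF+ cells and a median of 652 UMIs, had 628 CPM of Nfkbia (525 to 746) and 140.1 CPM of Tnip1 (93.8 to 201). No endothelial cluster of the lung had 50 cells in both libraries, so within-cluster ratios could not be given for this lineage. Taking the UMIs per platelet away from each cell left 7 of 10 genes higher in lung endothelium, 8 in mesenchyme and 7 in epithelium. Taking away a free share estimated from C1q (44.4% of TNF+ mesenchymal UMIs, 27.0% of endothelial and 17.8% of epithelial UMIs) left 7, 5 and 2 higher and 3, 2 and 3 lower, in the same order. Under it the ratio of Rel in mesenchyme became -1.34, that of Nfkbiz in endothelium -2.67, and those of Tnfaip3 and Tnip1 in epithelium -1.71 and -0.33.

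Lung fibroblasts and lung epithelium each had a cluster with at least 50 cells in both libraries. The fibroblast cluster led by Igfbp6 and Cxcl14 (219 TNF- and 90 TNF+ cells) had 4 of 8 measured genes higher (10.1% of all genes) and none lower (14.3%), with log2 ratios of 2.21 for Nfkbia, 2.77 for Tnip1, 0.62 for Relb and 0.27 for Nfkb1. The epithelial cluster led by Ank3 and Sftpb (172 and 59 cells) had 7 of 10 genes higher (14.1% of all genes) and none lower (5.71%), with 1.79 for Nfkbia, 1.57 for Tnip1, 2.62 for Relb and 1.003 for Nfkb1. Nfkbia and Tnip1 passed the fold in both clusters. The part of the C1q load in these ratios was not tested within clusters.

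**Figure D5:**
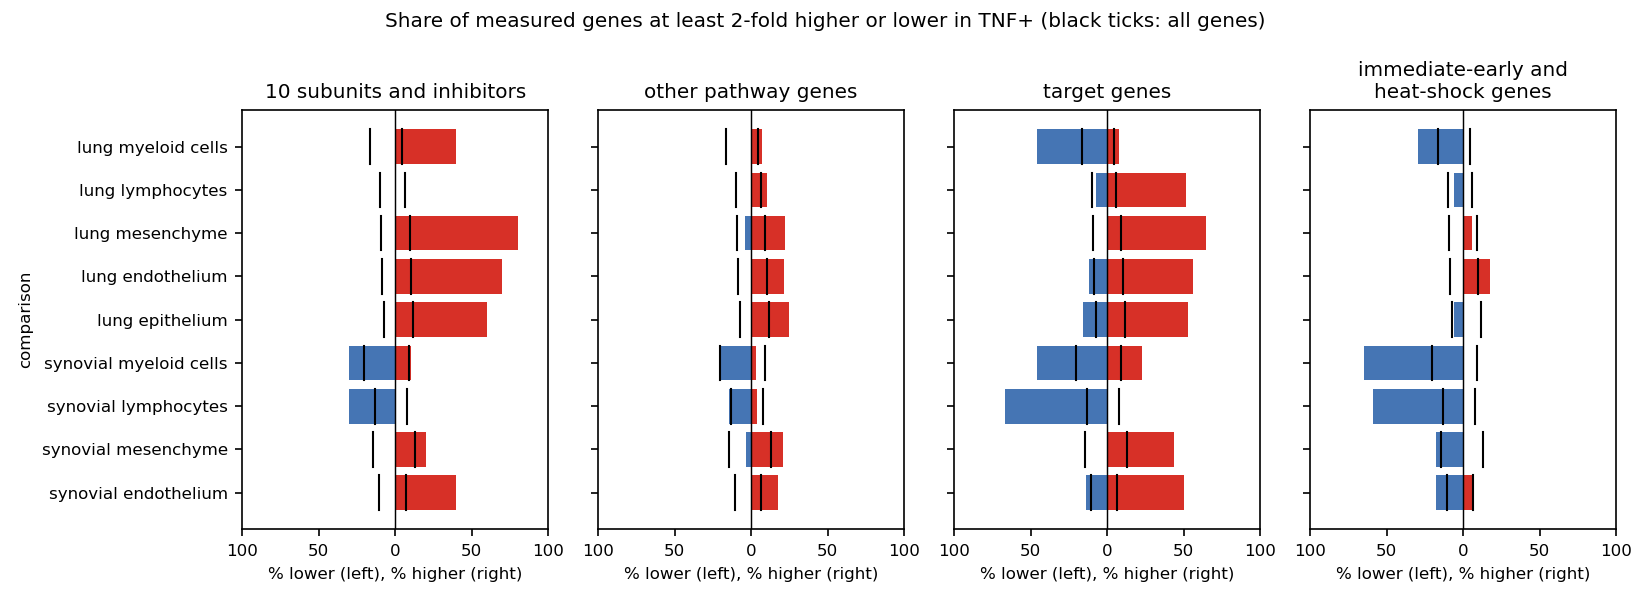
Percent of measured genes at least 2-fold higher (right of 0) or lower (left of 0) in TNF+ cells, for each gene list in the 9 lineages compared; ticks mark the percent of all genes tested. The 10 genes lie furthest right in lung mesenchyme (8 of 10), and the immediate-early genes furthest left in synovial myeloid cells (11 of 17).

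Other genes of the pathway were counted in the same way. Of 29 other pathway genes, which include Rela, the kinases, the receptors and the adaptor proteins, 2 were higher (4.46% of all genes) and none lower in lung myeloid cells. These were Traf1, an adaptor at TNF receptors (98.7 CPM in TNF- against 228 CPM in TNF+ cells), and Tnip3, a relative of Tnip1 (41.5 CPM in TNF- against 153 CPM in TNF+ cells). In lung mesenchyme 6 of 27 measured were higher (9.35% of all genes) and 1 lower (9.04%), in lung endothelium 6 of 28 were higher (10.1%), and in lung epithelium 7 of 28 (11.6%). Traf1 was also higher in lung endothelium (5.15 CPM in TNF- against 27.2 CPM in TNF+ cells) and in synovial endothelium (4.33 CPM in TNF- against 18.6 CPM in TNF+ cells), where 5 of 29 were higher (6.72% of all genes) and none lower. Bcl3, a nuclear IkB protein, was at 11.1 CPM in TNF- against 40.1 CPM in TNF+ lung mesenchyme. Synovial myeloid cells had 1 of 29 higher (9.16% of all genes) and 6 lower (20.1%), a lower share near that of all genes. Among the lower ones were Nfkbid, another nuclear IkB protein (104 CPM in TNF- against 26.2 CPM in TNF+ cells), and Map3k14, the kinase of the non-canonical arm (157 CPM in TNF- against 60.4 CPM in TNF+ cells). Nfkbid was also lower in synovial lymphocytes, at 165 CPM in TNF- against 34.0 CPM in TNF+ cells.

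Of 29 genes known as NF-kB targets, those measured did not follow the brakes in lung myeloid cells, where 2 of 26 were higher (4.46% of all genes) and 12 lower (16.6%), with a median log2 ratio of -0.82. The manganese superoxide dismutase Sod2 was at 100.1 CPM in TNF- against 399 CPM in TNF+ lung myeloid cells, and the adhesion gene Vcam1 at 6.45 CPM in TNF- against 16.2 CPM in TNF+. The cytokine Il6 was at 43.6 CPM in TNF- against 3.15 CPM in TNF+, and Ptgs2, the inducible cyclooxygenase, at 55.1 CPM in TNF- against 3.68 CPM in TNF+. These 12 targets thus stood on the opposite side to Nfkbia, Tnfaip3 and Tnip1 in the sum of this lineage. The mix of cells in it differed, with neutrophils being 302 of 1046 TNF- but 179 of 4899 TNF+ cells. Il6 was the leading gene of a cluster of mast cells or basophils with 20 TNF- and 8 TNF+ cells. The targets were not read by cell type, and the part of the mix was not tested. In endothelium more targets were on the side of the brakes: 14 of 25 targets were higher (10.1% of all genes) and 3 lower (8.83%) in lung, with a median of 1.67, and 11 of 22 higher (6.72%) and 3 lower (10.5%) in synovium, with a median of 1.12. The C1q load of lung endothelium was 0.930 UMIs per cell in the TNF+ and 0.0271 in the TNF- library. Its part in the target counts was not tested. Sele, the E-selectin of activated endothelium, was at 0.501 CPM in TNF- against 9.30 CPM in TNF+ lung endothelium. In synovial endothelium Sele had no UMI in TNF- cells and 28.5 CPM in TNF+ cells.

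In synovial mesenchyme 11 of 25 targets were higher (12.9% of all genes) and none lower, with a median of 0.61, and in lung mesenchyme 11 of 17 (9.35%), with a median of 2.56. The chemokine Ccl2 was at 0.989 CPM in TNF- against 331 CPM in TNF+ lung mesenchyme, and the acute-phase gene Saa3 at 6.18 CPM in TNF- against 883 CPM in TNF+. The C1q load of lung mesenchyme was 1.09 UMIs per cell in the TNF+ and 0.0337 in the TNF- library. Its part in the target counts was not tested. Lung lymphocytes, where no member passed the fold, had 14 of 27 targets higher (6.13% of all genes) and 2 lower (10.1%), with a median of 1.05. Their C1q load was 1.20 UMIs per cell in the TNF+ and 0.0338 in the TNF- library, and its part was not tested. Synovial myeloid cells were mixed, with 6 of 26 higher (9.16% of all genes) and 12 lower (20.1%), and a median of -0.97. The neutrophil attractants Cxcl1 (94.4 CPM in TNF- against 916 CPM in TNF+ cells) and Cxcl2 (1009.8 CPM in TNF- against 9504 CPM in TNF+ cells) were higher there, and the maturation marker Cd83 (753 CPM in TNF- against 84.5 CPM in TNF+ cells) was lower. Synovial lymphocytes had none of 24 higher and 16 lower (13.1% of all genes), with a median of -1.86, among them Ccl4 (284 CPM in TNF- against 14.4 CPM in TNF+ cells).

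Across the 25 lineage sums, the 10 genes varied together in part. Pearson correlations of log2(CPM + 1) between pairs of them ran from 0.39 (Nfkbiz with Tnfaip3) to 0.90 (Nfkb2 with Relb), with a median of 0.65 over 45 pairs. Nfkb2 (0.92) and Nfkbie (0.91) lay closest to the mean of the 10, and Nfkbiz (0.74) and Rel (0.75) furthest. Among 16099 genes, those outside the list most like that mean included 4833438C02Rik (0.83), Map3k8 (0.82), Rps29 (0.80), Rps27a (0.80) and Rps23 (0.80). Map3k8 encodes a kinase bound to the product of Nfkb1, and the Rps genes encode ribosomal proteins. The points share libraries, depth and free RNA, so these values describe the sums and carry no test.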

How the data were processed

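Single-cell suspensions of pooled lung and synovium were sequenced as 10x libraries, 1 per group. The UMI counts per gene and cell that the authors deposited came, per the labels, from Cell Ranger 7.0.1 on mm10. This version counts intronic reads by default, which could raise long genes. No normalized value or cell annotation was used here. Cells with 200 to 5000 genes and at most 20% mitochondrial UMIs were kept. Each tissue was clustered without the gene lists (values scaled to 10000, 2000 variable genes, 30 components, 20 neighbours, Leiden resolution 0.8), and clusters were named from marker lists where at least 5 markers were 2-fold enriched. The upper limit on genes was the only step against doublets. UMIs were summed per library and lineage, and CPM carry exact Poisson intervals. Ratios carry exact conditional binomial intervals. With 1 library per group no test between groups could be made. Scripts were tested on simulated data. The 10 genes and all gene lists were chosen with earlier results of these data known. From the other lists, at most the 3 largest and 3 smallest ratios past 2-fold with at least 20 UMIs in a comparison were named, and the 6 genes most like the mean of the 10, of which 1 is not reported here. Promoters came from RefSeq and gene positions from GENCODE M21 on GRCm38. Alternatives covered cell filters, Scrublet, cell weighting, centring, UMI minimum, resolution, free RNA, one-library clusters and fold. Restriction to cells with at least 1000 UMIs, the platelet subtraction and the addition of an unnamed cluster were chosen after seeing the data. Tools were Python 3.11.15, numpy 2.4.6, scipy 1.17.1, scikit-learn 1.9.0, leidenalg 0.10.2 and scanpy 1.11.5.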

Additional observations from a re-analysis of the deposited data

Results flagged for a closer look

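For 10 pairs of values a gene lay on opposite sides of 0 in synovium and lung, as log2 ratios of TNF+ over TNF-, with both counting intervals clear of 0 and at least 1 of the ratios past 2-fold. Other pairs on opposite sides did not meet this. With 1 library per group, none of these differences between tissues was tested. In myeloid cells, Nfkb1 was at -1.15 in synovium and 0.28 in lung, and Rel at -1.84 and 0.40. Among the IkB family, Nfkbia was at -0.13 and 1.25, Nfkbie at -0.52 and 1.13, and Nfkbiz at -1.87 and 0.75. Tnfaip3 was at -0.64 in synovial and 1.44 in lung myeloid cells. In lymphocytes, Nfkb1 was at -1.54 in synovium and 0.18 in lung, Nfkbia at -1.56 and 0.20, and Nfkbiz at -1.30 and 0.35. In endothelium, Nfkbiz was at -0.54 in synovium and 2.01 in lung. With free RNA subtracted the lung value of Nfkbiz turned to -2.67 in endothelium and to -0.15 in lymphocytes, the same side as in synovium. The cells compared were not alike: dendritic cells were 366 of 615 synovial myeloid cells in the TNF- library against 58 of 1105 in the TNF+ library, and digestion used different enzymes in the 2 tissues. Their part in these values was not tested.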

How the results depend on the processing

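Of 224 counts of genes past the fold under an alternative, 210 stayed within 1.5 times the reported count. The other 14 follow. At a fold of 1.5, 5 genes were lower in synovial myeloid cells, and 1 was higher in synovial lymphocytes, 6 in synovial mesenchyme, 8 in synovial endothelium and 7 in lung myeloid cells. With each cell weighted equally, 0 genes were higher in synovial myeloid cells. The stricter cell filter left 1 higher in synovial mesenchyme, centring on the median gene gave 4, and leaving out one-library clusters gave 1. With no cell filter, 7 were higher in lung myeloid cells. Free RNA was estimated from C1q, except in myeloid cells, where Sftpc served in lung and Col1a1, Col1a2 and Col3a1 in synovium. Subtracting free RNA gave 3 lower in lung mesenchyme, 2 lower in lung endothelium, and 2 higher and 3 lower in lung epithelium. Under this subtraction 34 of the 38 ratios past 2-fold kept their sign, and 78 of all 90 ratios did. Those past 2-fold that turned were Rel in lung mesenchyme (-1.34), Nfkbiz in lung endothelium (-2.67), and Tnfaip3 (-1.71) and Tnip1 (-0.33) in lung epithelium. The cause of these changes was not tested. Under each other alternative all 38 ratios past 2-fold kept their sign, including the platelet subtraction in its 21. Without one-library clusters, lung endothelium had 35 TNF- and 4 TNF+ cells. Shares of cells depended on depth, and 183 of 190 moved without thinning. No paired analysis was possible because each group has 1 library and the labels share no replicate numbers.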

Other observations

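Some lineages had at least 50 cells in 1 or both libraries but entered no comparison above. Schwann cells, the glia of peripheral nerve, numbered 68 in TNF- and 233 in TNF+ synovium. They had 149 and 387 CPM of Nfkbia, 72.2 and 154 CPM of Rel, and 196 and 91.1 CPM of Nfkbiz, with little Tnfaip3 in either group (4.66 and 7.25 CPM). C1q averaged 0.779 UMIs per cell in TNF- Schwann cells. Epithelial cells of the TNF+ synovium (143 cells) had 464 CPM of Nfkbia, 8.72 CPM of Tnfaip3 and 61.7 CPM of Tnip1, and the TNF- synovium held 1 such cell. Muscle cells of the TNF- synovium had 803 CPM of Nfkb1, second of 25 sums for that gene.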
